A study of Caenorhabditis elegans with 12 samples.

Results

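Nuclear-enriched RNA was compared with cytoplasmic-enriched RNA in hrde-1(tm1200) mutant Caenorhabditis elegans. The comparison set 2 nuclear libraries against 2 cytoplasmic libraries, window by window along the genome. Described are the 16991 windows of 1000 bases, of 100257 in the deposited table, whose mean coverage over these 4 libraries was at least 10. The lowest mean inside this limit was 10.0 and the highest outside it 9.9975, with 997 windows between 10 and 11 and 1113 between 9 and 10. All animals in the series were young adult hermaphrodites grown at 23 C, and the groups used are hrde-1 nuclear, hrde-1 cytoplasmic, hrde-1 whole, N2 nuclear, N2 cytoplasmic and N2 whole RNA, the last only for its part in the estimate of the spread. N2 is the wild type strain. Each group had 1 library from animals kept at 23 C for 3 generations and 1 for 4 generations, called generation 3 and generation 4. Per the labels' protocols, ground worms were spun through a sucrose cushion, the pellet gave the nuclear RNA and the clear layer the cytoplasmic RNA. Ribosomal RNA was removed with antisense oligonucleotides and RNase H, with no selection for poly(A) tails. The labels do not say whether libraries came from separate cultures, so a p-value here weighs a difference against the spread of these libraries alone. That spread may be technical, and it also holds any difference between generations 3 and 4.

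HRDE-1 is a germline Argonaute protein that binds small interfering RNAs, enters the nucleus and directs silencing of the matching genes and repeats at the level of chromatin and transcription. Nuclear RNA holds nascent transcripts, unspliced introns and RNAs retained on chromatin, whereas cytoplasmic RNA is mostly spliced messenger RNA on its way to or on ribosomes. Windows that carry the mark GRTS in the table stand, in this field, for targets of germline nuclear RNAi that are silenced at transcription, and windows marked GRH for targets that carry its heterochromatin. No source used here says how the marks were set. They may have been chosen with these libraries, so the marked windows are no independent evidence of a direction.

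Coverage values are shares of a library. They do not give the amount of RNA that a compartment holds, so a window can only be higher or lower relative to the rest of its library. In whole-animal material such as this, fewer cells of a type and less RNA per cell cannot be told apart. A value of 0.1 is the floor and stands for no reads. Taking the spacing of low values as the value of 1 read, the hrde-1 nuclear libraries of generations 3 and 4 held 487460 and 709528 read equivalents, and the hrde-1 cytoplasmic libraries 520746 and 361862. The N2 nuclear libraries were deeper (802294 and 907993) and the N2 cytoplasmic libraries shallower (191276 and 263410) than these. Counted above the floor, as all shares of signal below, the described windows held 85.1% and 85.4% of the signal of the hrde-1 nuclear libraries, and 91.2% and 91.3% of that of the hrde-1 cytoplasmic libraries. Neither markers of the fractions nor the hrde-1 gene itself were analysed here, because the table does not pair windows with genes and no source used here names its genome build. Windows are therefore named by chromosome and position in the table.

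Of the 16991 windows, 729 (4.29%) were higher and 943 (5.55%) were lower in hrde-1 nuclear RNA than in hrde-1 cytoplasmic RNA (limma on log2(coverage + 1), two-sided, Benjamini-Hochberg adjusted over all 43933 windows tested). Over all windows tested, 4.63% were higher and 2.3% lower. The median log2 difference, nuclear minus cytoplasmic, was -0.08 among the described windows, with -0.21 in generation 3 and 0.04 in generation 4. It was 0.30 over all windows tested and 0.68 in the 26942 tested windows below the coverage limit, where 1305 were higher and 69 lower. In these low windows the median was 0.51 in generation 3 and 0.87 in generation 4, where the cytoplasmic library was the shallower. Low windows thus leaned to the nuclear side on this scale, and the described windows were nearly balanced. The part of library depth in this lean was not tested. In 3870 described windows both nuclear libraries lay above both cytoplasmic libraries, and in 5182 both lay below.

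Windows called higher had a median coverage of 65.5 in nuclear RNA, against 16.0 in cytoplasmic RNA. For windows called lower the medians were 18.0 in nuclear RNA, against 67.5 in cytoplasmic RNA. Together the 729 higher windows made up 12.4% and 10.9% of the signal of the nuclear libraries of generations 3 and 4, and 3.81% and 3.58% of that of the cytoplasmic libraries. The 943 lower windows made up 4.03% and 4.59% of the nuclear signal, and 11.8% and 14.1% of the cytoplasmic signal. Whole RNA from hrde-1 animals entered the fit only through the estimate of the spread. It read between the nuclear and cytoplasmic means in 720 of the 729 higher windows (98.8%) and 923 of the 943 lower windows (97.9%). Among all described windows it did so in 50.7%. Called windows were picked for a gap between these means, so their larger share is no separate evidence for the calls. The log2 difference passed 1 in 1699 windows, 2 in 454 and 3 in 180. It lay below -1 in 1730 windows, below -2 in 419 and below -3 in 128.

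**Figure D1:**
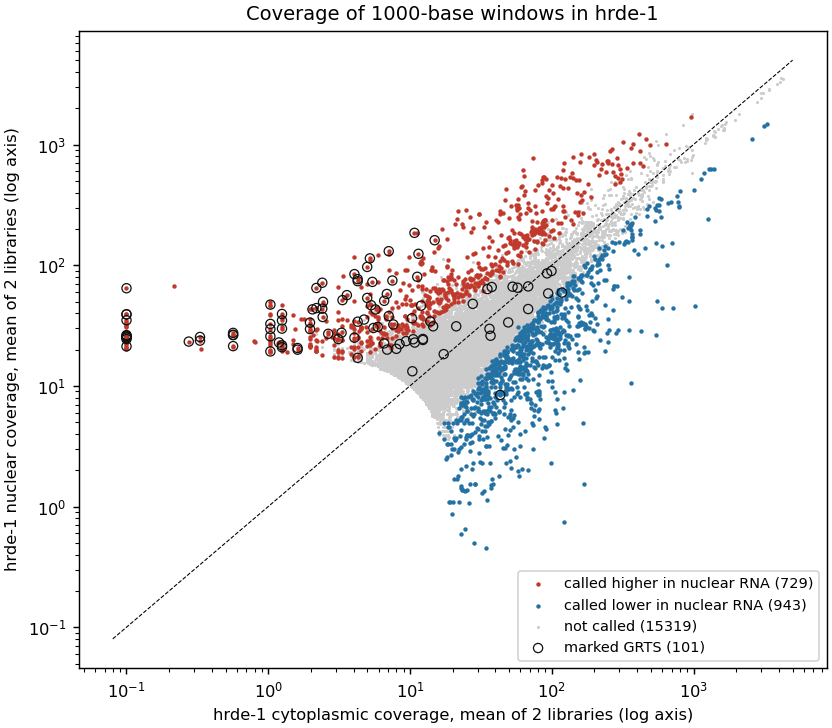
Mean coverage of each described window in hrde-1 nuclear RNA (vertical, log axis) against hrde-1 cytoplasmic RNA (horizontal, log axis), each over 2 libraries, with the dashed line at equal values. Red points are the 729 windows called higher, blue points the 943 called lower, grey points the 15319 not called, and rings the 101 windows marked GRTS, many of which lie at the upper left.

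These counts rested on the pooled spread and on single libraries. A fit of the 4 hrde-1 libraries alone called 0 windows, with 3775 at an unadjusted p under 0.05, and thinning all libraries to the smallest called 220 higher and 253 lower. Leaving out the hrde-1 nuclear library of generation 3 gave 252 higher and 493 lower windows, and leaving out that of generation 4 gave 419 and 691. Leaving out the hrde-1 cytoplasmic library of generation 3 gave 671 and 549, and leaving out that of generation 4 gave 354 and 531. If the N2 cytoplasmic library of generation 3 was dropped the counts were 1192 and 1422, and if that of generation 4 was dropped they were 1195 and 1403. In all, 233 higher and 438 lower windows kept their call whichever single library was left out.

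The share of windows called was higher among windows of higher coverage, up to a mean of 500. Between a mean of 10 and 20, 2.91% of 6877 windows were higher and 2.17% lower. Between 20 and 50, 3.11% of 6652 were higher and 5.88% lower, and between 50 and 100, 105 of 2144 were higher and 235 lower. Between 200 and 500 the shares were 21.0% higher and 14.1% lower of 362 windows, and at 500 or more 13.0% and 13.8% of 123. More reads lower the counting error of a window, and the part of depth in these shares was not tested.

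Chromosome X had the largest share of lower windows. On chromosome X, 224 of 1468 described windows (15.3%) were lower in nuclear RNA and 57 (3.88%) were higher. On the autosomes 719 of 15523 (4.63%) were lower and 672 (4.33%) were higher, with lower shares of 3.61% on I to 5.58% on IV and higher shares of 2.17% on III to 5.93% on V. The median log2 difference of the X windows was nevertheless 0.14, above the -0.10 of the autosomes, so X held a set of strongly lower windows beside a majority near or above equality. Its windows carried 10.2% and 9.98% of the signal of the nuclear libraries and 11.2% and 11.8% of that of the cytoplasmic libraries. The 224 lower X windows were 183 to 235 with single libraries left out and 73 after thinning. The count of 57 higher X windows became 8 without the generation 3 and 25 without the generation 4 library of hrde-1 nuclear RNA, and 23 without generation 4 of hrde-1 cytoplasmic RNA. It became 132 and 134 without generation 3 and generation 4 of N2 cytoplasmic RNA. Arms were taken as the outer 25% of a chromosome at each end. Those of V had the largest share of higher windows, 69 of 861 (8.01%). They hold a stretch with 23 higher windows from 5180001 to 5207000, where 18 of 27 windows are marked GRTS. They also hold stretches from 18439001, 18444001 and 20295001 with 3, 6 and 3 higher windows, each with GRTS windows. The share of the V arms thus rests in part on a few places. In the stretches of IV that hold most piRNA genes, taken as 5 to 7 and 14 to 17 Mb, 50 of 535 windows (9.35%) were lower, against 116 of 2439 (4.76%) on the rest of IV. These shares are descriptions without a test.

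**Figure D2:**
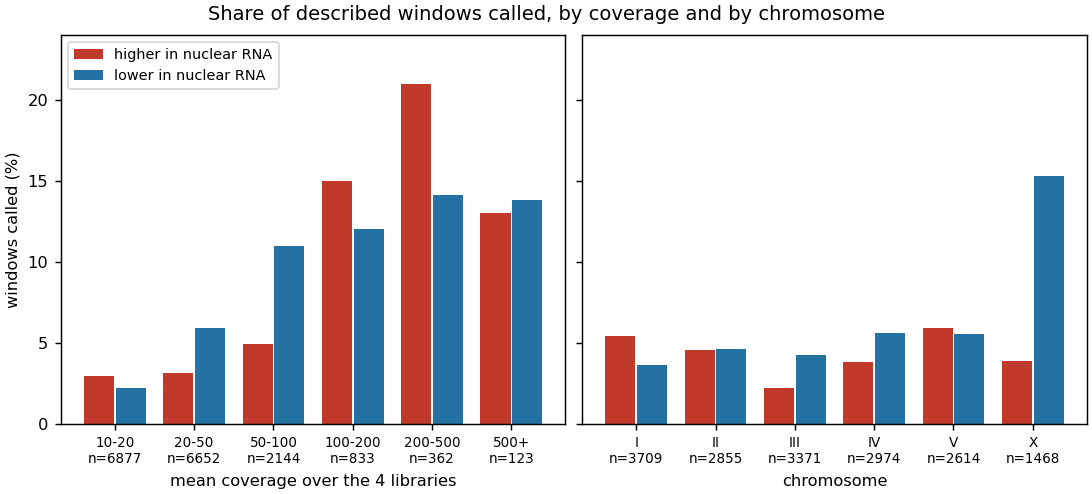
Share of described windows (vertical, percent) called higher (red) or lower (blue) in hrde-1 nuclear than in cytoplasmic RNA, by mean coverage over the 4 libraries (left) and by chromosome (right), with the number of windows under each pair of bars. Chromosome X stands out with 15.3% lower windows, and the shares in both directions are higher above a mean of 100 than below 50.

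The 10 windows with the highest differences were found in both nuclear libraries and were nearly empty in the cytoplasm. Window 4462001 of chromosome I, marked GRTS and GRH, read 67.6 and 61.3 in nuclear RNA of generations 3 and 4 and the floor of 0.1 in both cytoplasmic libraries. Its nuclear coverage was at least 20.6-fold higher, counting 3 reads over the cytoplasmic group, with a log2 difference of 5.89 (SE 0.70, limma adjusted p = 0.000128). Whole RNA read 9.68 and 22.4 there. The runner-up, chromosome II window 11532001, has no mark and read 62.0 and 72.8 in nuclear RNA, against 0.1 and 0.33 in cytoplasmic RNA (at least 22.1-fold, log2 difference 5.82, SE 0.55, limma adjusted p = 1.49e-05). In N2 this window also read 87.4 and 68.8 in nuclear RNA, against 0.1 and 3.25 in cytoplasmic RNA, whereas the window on I read 2.46 and 6.41 in N2 nuclear RNA and the floor in N2 cytoplasmic RNA. Both were called higher in N2 nuclear RNA as well, the window on I from 8 nuclear and 0 cytoplasmic reads (log2 difference 2.20, limma adjusted p = 0.0472).

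GRTS windows were also 3 of the other 8. Window 10939001 of II read 42.5 and 35.8 in nuclear RNA, window 2158001 of II 44.3 and 34.0, and window 20465001 of V 40.6 and 29.4, all with the floor in both cytoplasmic libraries. Their log2 differences were 5.19, 5.18 and 5.02 (limma adjusted p = 0.000163, 0.00178 and 0.000251). The remaining 5 windows, on V from 18448001, 5181001 and 18444001, on IV from 4132001 and on III from 13162001, carry no mark and read 23.2 to 40.9 in nuclear RNA and the floor in the cytoplasm. As in all 729 windows called higher, the nuclear and cytoplasmic libraries did not overlap in these 10, and nuclear libraries lay above without overlap in 3870 of all 16991. Across all described windows 26 had no cytoplasmic read, and 11 of these were GRTS windows and 8 more lay within 10 windows of one. Such windows passed the coverage limit through their nuclear reads alone. No described window lacked nuclear reads, though 5, all called lower, held less than 1 read. In the cytoplasm 38 held less than 1 read, the 26 included.

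At the other end, the 10 most cytoplasmic windows held from less than 1 nuclear read to 61 nuclear reads. Window 14410001 of V read 0.1 and 1.38 in nuclear RNA, against 97.3 and 145.2 in cytoplasmic RNA, a log2 difference of -6.21 (SE 0.41, limma adjusted p = 1.23e-06). From 1 nuclear read, the ratio of nuclear to cytoplasmic coverage was 0.00647, with an exact 95% interval of 0.000162 to 0.0368 that covers counting error only. Window 8781001 of I read 2.03 and 1.06 in nuclear RNA, against 131.0 and 207.4 in cytoplasmic RNA (log2 difference -6.05). Both were also lower in nuclear RNA in N2, with 4.82 and 3.26 against 119.2 and 126.0 for the V window, and 3.64 and 7.29 against 531.4 and 245.7 for the I window.

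With more reads behind them, window 7278001 of III read 5.88 and 15.4 in nuclear RNA, against 265.6 and 460.8 in cytoplasmic RNA, 34.4-fold lower (log2 difference -5.05, limma adjusted p = 3.37e-06). The most abundant of the 10 was window 13834001 of II, which read 40.6 and 51.1 in nuclear RNA, against 830.4 and 1223 in cytoplasmic RNA. It was 22.4-fold lower in the nuclear fraction, with a log2 difference of -4.44 (SE 0.20) and one of the smallest adjusted p of the comparison, 7.34e-08. Its whole RNA values, 356.0 and 393.7, lay between the fractions. The other 6, on IV from 15235001, V from 16219001 and 12002001, X from 11933001 and 11935001, and I from 7960001, had log2 differences of -4.48 or lower. The libraries did not overlap in these 10, as in all 943 windows called lower, and nuclear libraries lay below without overlap in 5182 of all 16991. All 20 of these calls held with any single library left out, and all ended in the fit of 4 libraries, where the windows 4462001 of I and 14410001 of V had an adjusted p of 0.0665. Thinning ended the calls of 5 higher windows, from 10939001 and 2158001 of II, 5181001 of V, 4132001 of IV and 13162001 of III, and of the lower windows 7278001 of III, 11933001 of X and 7960001 of I.

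**Figure D3:**
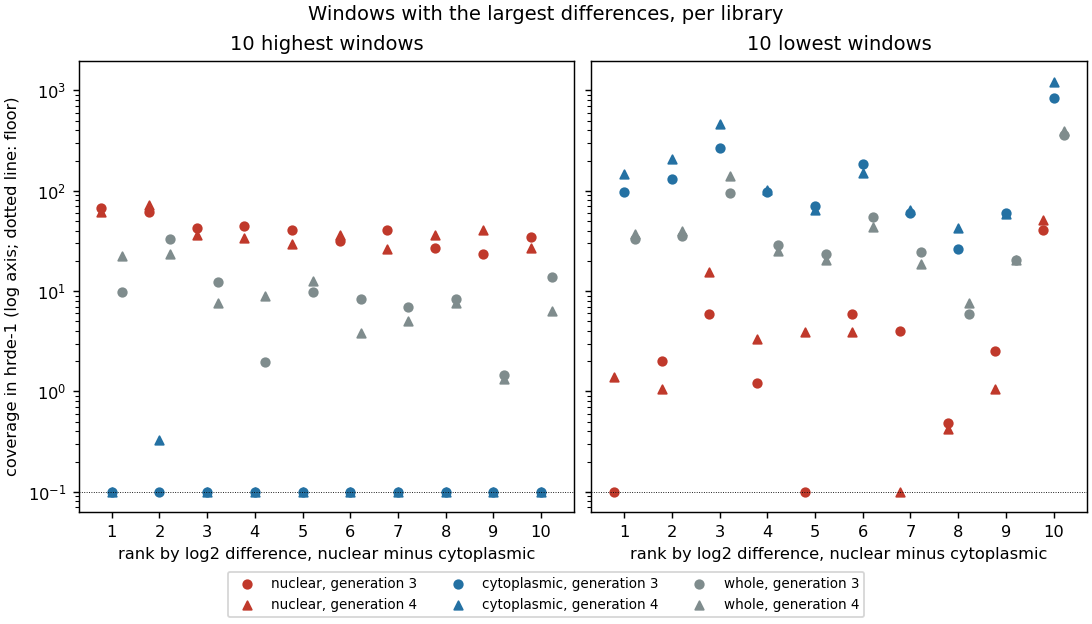
Coverage per library (vertical, log axis) of the 10 windows with the highest and the 10 with the lowest log2 difference in hrde-1, by rank (horizontal), with nuclear values in red, cytoplasmic in blue and whole RNA in grey, circles for generation 3 and triangles for generation 4. On the left nearly all cytoplasmic values lie on the dotted floor line at 0.1, and on the right the cytoplasmic values lie above all nuclear and whole RNA values of their window.

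The 6 called windows of each direction with the highest coverage differed by a few fold, from 1.59-fold to 3.31-fold higher and from 2.04-fold to 2.34-fold lower in nuclear RNA. Window 8979001 of IV read 1816 and 1573 in nuclear RNA, against 1065 and 842.0 in cytoplasmic RNA, 1.78-fold higher (log2 difference 0.84, limma adjusted p = 0.0240). Its call was lost without either hrde-1 nuclear library or without the hrde-1 cytoplasmic library of generation 4. Window 2069001 of I, at 1.59-fold (limma adjusted p = 0.0246), lost its call without the same 3 libraries. Each call was also lost with eBayes without a trend, with no filter on low windows, after thinning and in the fit of 4 libraries. Larger differences were found at window 10966001 of V, with 1112 and 1000.01 in nuclear RNA, against 346.1 and 292.6 in cytoplasmic RNA (3.31-fold), and at window 4585001 of I, with 1321 and 1122 against 456.4 and 368.6 (2.96-fold). Both held with any single library left out (limma adjusted p = 6.66e-06 and 0.000105).

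On the lower side, window 5211001 of III read 1430.1 and 1525 in nuclear RNA, against 3104 and 3519 in cytoplasmic RNA, 2.24-fold lower (log2 difference -1.16, limma adjusted p = 1.65e-05). Window 5031001 of III had nearly the same profile, with 1376 and 1496 in nuclear RNA, against 2960 and 3330.0 in cytoplasmic RNA. Both calls held with any single library left out. Both were lost with eBayes without a trend, with no filter on low windows and in the fit of 4 libraries. Such pairs are uncertain, since like copies may share reads, and 10 described windows had all 12 values equal to those of another. The 6 most abundant windows, 8262001 to 8265001 of IV and 5101001 and 5105001 of X, read 2730 to 3565 in nuclear RNA, against 3188 to 4376 in cytoplasmic RNA. Their log2 differences of -0.32 to -0.23 did not pass the test, with adjusted p of 0.114 to 0.277. Both nuclear libraries lay below both cytoplasmic libraries in each of the 6, as in 5182 of the 16991 described windows.

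Higher windows lay in long runs more often than lower windows, and single windows were common in both. Called windows of 1 direction were merged into runs across gaps of up to 1 window, which gave 398 higher and 789 lower runs. Of the higher windows 45.3% lay in 51 runs of 3 or more, and 40.5% stood alone, with 25 runs of 5 or more. Of the lower windows 7.74% lay in 22 runs of 3 or more, none of which held 5, and 70.4% stood alone. Chromosomes I and V held 14 and 16 of the 51 longer higher runs, beside 201 and 155 of all 729 higher windows. X held 9 of the 22 longer lower runs, beside 224 of all 943 lower windows. Of the 25 higher runs with 5 or more windows, 8 held GRTS windows and 16 held no marked window.

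The run with the most called windows, on chromosome I from 4334001 to 4358000, had 24 of 24 and no mark. Its mean coverage was 182.7 and 140.0 in nuclear RNA, against 64.3 and 49.3 in cytoplasmic RNA, 2.84-fold higher, and whole RNA read 87.1 and 77.0. Nuclear coverage of its windows repeated itself every 3 windows, with 12 of 21 windows within 10% of the one 3 windows on (r = 0.739 across windows). The values of this run are uncertain, since like copies may share reads, and its windows are not independent. All 24 were also higher in N2, at 168.5 and 157.9 in nuclear RNA, against 69.8 and 52.0 in cytoplasmic RNA. A sharper unmarked run on IV from 11974001 to 11993000, with 18 called windows of 19, read 115.2 and 67.1 in nuclear RNA, against 11.7 and 8.46 in cytoplasmic RNA, 9.11-fold higher, and all 18 were higher in N2 as well.

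Of the 8 higher runs with the most called windows, another 5 were unmarked and on chromosome I. The run from 4386001 to 4402000 averaged 155.2 ± 14.4 in nuclear RNA, against 63.5 ± 7.47 in cytoplasmic RNA (SD, n = 2 each). From 4059001 to 4072000 the means were 58.3 ± 20.1 and 12.5 ± 0.307, and from 11765001 to 11780000 they were 67.6 ± 13.2 and 16.6 ± 2.73. The runs from 14882001 to 14894000 and from 10267001 to 10277000 were 3.75-fold and 2.83-fold higher in nuclear RNA. Nuclear coverage in the run from 10267001 was within 10% of that 5 windows on in 3 of 5 windows (r = 0.712 across windows). In the run from 4386001 it was within 10% of that 6 windows on in 5 of 10 windows (r = 0.625). The values of both runs are uncertain too, since like copies may share reads. The shift differed between runs, and no r at a shift was tested. In the run on IV from 11974001 r was 0.349. In the runs on I from 4059001, 11765001 and 14882001 it was 0.278, 0.518 and 0.447. Single libraries decided many of the windows in the runs named so far. With any one library left out, 9 of the 24 windows kept their call in the run from 4334001, 12 of 18 on IV from 11974001, and 5 of 15, 1 of 13, 3 of 12, 0 of 11 and 1 of 10 in these 5.

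The lower runs named by the same rule had 3 or 4 called windows. On X from 14476001 to 14479000 all 3 windows were lower, with means of 36.0 and 42.6 in nuclear RNA, against 469.9 and 577.8 in cytoplasmic RNA, 0.0748 of the cytoplasmic value. On X from 16271001 to 16275000 all 4 windows were lower, with 15.5 and 17.6 in nuclear RNA, against 88.4 and 121.0 in cytoplasmic RNA. Runs on X from 13713001 and 8152001 averaged 10.05 and 21.9 in nuclear RNA, against 49.6 and 88.3 in cytoplasmic RNA. In these 4 runs of X, 14 of 15 calls held with any single library left out, and every called window was also lower in N2. The other 4 named runs, on II from 10301001, III from 12872001 and IV from 11324001 and 11337001, kept 1, 0, 1 and 2 of 4 calls each.

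GRTS windows leaned to the nuclear fraction. Of the 191 GRTS windows in the table, 170 were tested and 101 passed the coverage limit. Among these 101, 63 (62.4%) were higher in nuclear RNA, 1 was lower and 37 were not called. Among the 16833 described windows without a mark, 656 (3.9%) were higher and 942 (5.6%) lower. The median log2 difference of the GRTS windows was 3.34, with 2.99 in generation 3 and 3.12 in generation 4, against -0.08 over all described windows. Both nuclear libraries lay above both cytoplasmic libraries in 87 of the 101, against 3870 of the 16991 described windows, and both lay below in 6. The 63 fell to 39 when the hrde-1 nuclear library of generation 3 was dropped, to 27 after thinning and to 0 in the fit of 4 libraries, and the median of 3.34 was 1.63 with a pseudocount of 10.

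In the nuclear libraries of hrde-1 the 101 windows had a mean coverage of 45.1 and 43.8, against 15.3 and 10.9 in the cytoplasmic libraries, and whole RNA read 18.6 and 19.9. Above the floor, nuclear coverage was 3.41 times cytoplasmic coverage, with 2.97 in generation 3 and 4.03 in generation 4. For the 16833 windows with no mark this ratio was 0.949, with 0.896 and 1.01. The 90 GRTS windows below the coverage limit read 7.66 and 6.70 in nuclear RNA, against 1.27 and 1.19 in cytoplasmic RNA, a ratio of 6.26 from 819 and 99 reads. Of all 191, 51 had no cytoplasmic read in hrde-1 and 1 had no nuclear read.

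GRTS windows within 10 windows of each other formed 27 clusters, which differed from each other in their split between the fractions. Nuclear coverage was 5-fold cytoplasmic coverage or more in 12 of them, between 1-fold and 5-fold in 9, and below cytoplasmic coverage in 4. In the other 2, with 0 or 1 cytoplasmic read, the fold was not placed in a class. At least 1 described window was higher in 16 clusters, and all were higher in 6. The clusters thus ran over a range that included both directions.

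On IV from 915001 to 922000 all 7 windows were marked and all 7 were higher. Mean coverage there was 107.3 and 123.9 in nuclear RNA, against 7.71 and 8.49 in cytoplasmic RNA, 14.4-fold higher, and whole RNA read 32.6 and 41.7. Its first window read 175.5 and 195.2 in nuclear RNA, against 7.58 and 13.9 in cytoplasmic RNA (log2 difference 4.04, SE 0.55, limma adjusted p = 0.000445). The largest cluster, 18 windows of V from 5182001 to 5201000, had 15 higher windows and read 52.9 and 55.4 in nuclear RNA, against 4.71 and 3.94 in cytoplasmic RNA, 12.8-fold higher. It lay within a run of 23 called windows that reached into unmarked windows on either side, from 5180001 to 5207000. Of these 23, 7 kept their call with any single library left out. Nuclear coverage in this run was within 10% of that 2 windows on in 10 of 25 windows (r = 0.53 across windows). Whether this reflects a repeat was not tested. The cluster on I from 4456001 was 12.4-fold higher. That on V from 18439001 was 11.6-fold higher, with 7.89-fold in generation 3 and 23.4-fold in generation 4, from 20 cytoplasmic reads in all. The cluster of II from 2150001 to 2163000, with 6 of 9 windows higher, was 9.62-fold higher.

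Other GRTS clusters were at or below equality. On II from 13245001 to 13250000 mean coverage was 26.9 and 24.8 in nuclear RNA, against 49.6 and 43.9 in cytoplasmic RNA, a ratio of 0.551 with no overlap between the groups. The one GRTS window called lower, 13249001 of II, lies there and was named after its values were seen. It read 3.96 and 12.9 in nuclear RNA, against 45.0 and 41.6 in cytoplasmic RNA (log2 difference -2.42, limma adjusted p = 0.0479), and lost its call in 15 of 22 alternative settings, among them 9 that left out a single library. On V from 17568001 to 17573000 coverage was 26.1 and 28.2 in nuclear RNA, against 53.6 and 35.6 in cytoplasmic RNA, a ratio of 0.608, and no window was called. Window 12283001 of II read 75.7 and 57.8 in nuclear RNA, against 78.6 and 57.7 in cytoplasmic RNA. Window 16102001 of V read 25.2 and 26.9 in nuclear RNA, against 39.4 and 34.6 in cytoplasmic RNA. In N2 the last read 41.4 and 36.9 in nuclear RNA, against 27.6 and 28.4 in cytoplasmic RNA, the highest N2 values of any GRTS window described.

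A pair of clusters on V held both patterns side by side. Window 8829001 read 89.7 and 89.4 in nuclear RNA, against 120.7 and 78.4 in cytoplasmic RNA, with overlapping groups. The windows from 8832001, 8833001 and 8834001, a few kilobases on, read 19.8 to 29.0 in nuclear RNA and the floor in both cytoplasmic libraries, and all 3 were called higher. A second stretch from 8868001 to 8889000 has a like profile. Of its 21 windows, 18 had the same value as their counterpart, within 0.005 and with values at the floor included, in both hrde-1 cytoplasmic libraries, and 0 had it in both hrde-1 nuclear libraries. The values of the pair are reported as uncertain, since reads of like copies may have been shared. The pair makes up 21 of the 101 GRTS windows described, 11 in the first stretch and 10 in the second.

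**Figure D4:**
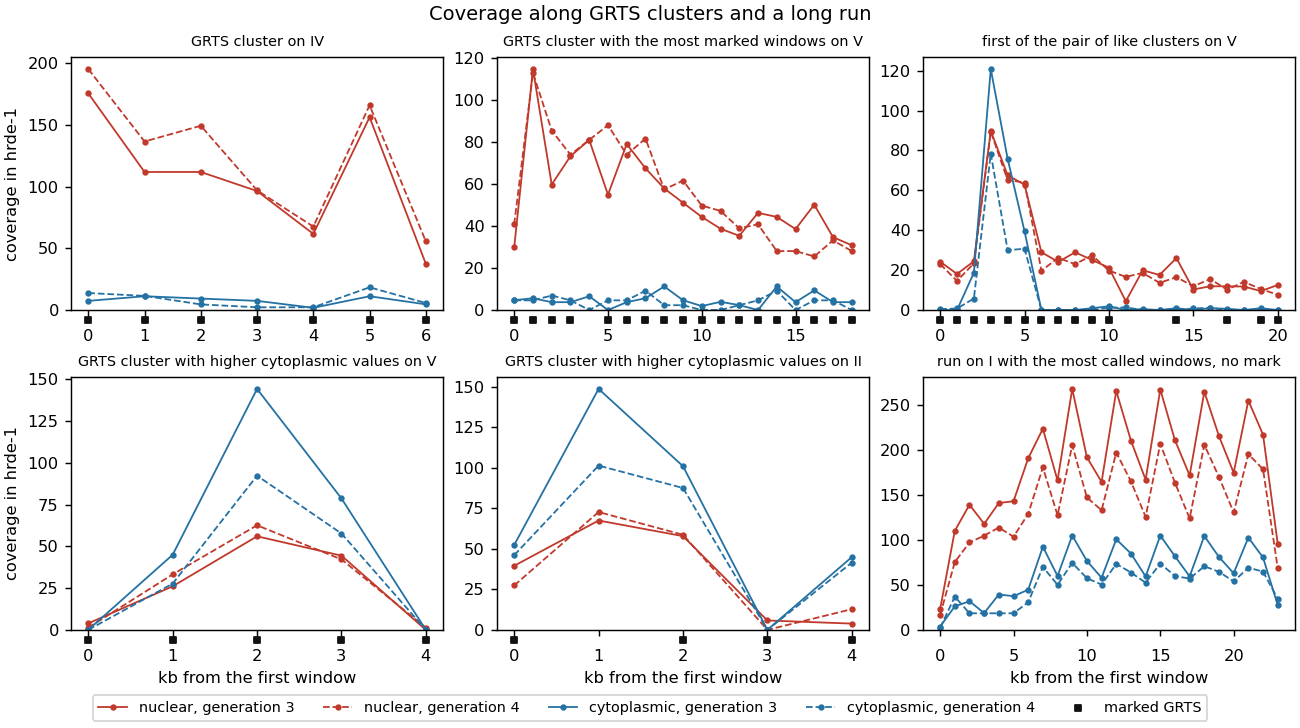
Coverage (vertical) along 5 GRTS clusters and the unmarked higher run with the most called windows (horizontal, kb from the first window) in hrde-1 nuclear RNA (red) and cytoplasmic RNA (blue), solid lines for generation 3 and dashed lines for generation 4, with black squares under marked windows. Nuclear values lie above cytoplasmic values throughout the clusters in the first and second panels and the run in the last, the third panel holds a peak shared by both fractions beside a nuclear stretch, and cytoplasmic values are higher at the peaks of the other 2 clusters.

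Windows next to GRTS windows leaned the same way, and those a few windows farther off were nearly balanced in their median. Of 71 described windows that were not GRTS but 1 or 2 windows from one, 30 (42.3%) were higher and 3 lower, with a median log2 difference of 1.85. At 3 to 10 windows 25 of 197 (12.7%) were higher and 8 lower, with a median of 0.09. Farther away 611 of 16622 (3.68%) were higher and 931 lower, with a median of -0.09. The run on V from 5180001 to 5207000 alone held 9 unmarked windows, so such neighbours are not all separate places. Of the 57 described GRH windows not marked GRTS, 10 (17.5%) were higher and 0 lower, and the 57 had a median of 0.78. Mean coverage of the 57 was 30.0 and 25.8 in nuclear RNA, against 22.5 and 17.3 in cytoplasmic RNA. Among the 10 higher windows, 6 formed 1 run on V from 5472001 to 5478000. The 4 of the 57 with the highest means had log2 differences of -0.80 to 0.72, and none was called. In N2, 19 of the 57 were higher and 0 lower, with a median of 1.16. The count of 10 was 2 after thinning, 0 in the fit of 4 libraries, 6 and 20 with pseudocounts of 0.1 and 10, and 3 to 18 when single libraries were dropped. It was lowest when either hrde-1 nuclear library (3 in generation 3, 6 in generation 4) or the hrde-1 cytoplasmic library of generation 4 (6) was dropped, and highest when the N2 cytoplasmic library of generation 3 (18) or 4 (17) was dropped.

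The same contrast was made in N2. There, 2147 of the 16991 windows were higher in nuclear RNA and 781 lower, against 14% higher and 1.99% lower over all windows tested. Of the 729 windows higher in hrde-1, 495 were also higher in N2 (67.9% of the hrde-1 list and 23.1% of the N2 list). Of the 943 lower in hrde-1, 603 were also lower in N2 (63.9% and 77.2%). No window was called in opposite directions. Since both contrasts came from 1 fit with a common spread for each window, part of the overlap may come from that. Across the 16991 windows the log2 differences of the genotypes had r = 0.623 and rho = 0.509. The windows of a library share its depth and are not replicates.

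Of the 63 GRTS windows higher in hrde-1, 15 were also higher in N2, against 480 of the 666 other windows (72.1%). In the 8 runs of 5 or more windows with GRTS windows, 17 of 70 called windows were also higher in N2, against 153 of 169 in the 16 unmarked runs. On X the lower windows numbered 224 in hrde-1 and 252 in N2. The 101 GRTS windows, at 45.1 and 43.8 in the nuclear libraries of hrde-1, averaged 3.05 and 3.49 in those of N2. In the cytoplasmic libraries they read 15.3 and 10.9 in hrde-1, against 0.689 and 0.694 in N2, from 32 reads. Above the floor, the ratio of nuclear to cytoplasmic coverage was 3.41 in hrde-1 and 5.36 in N2. Without window 16102001 of V, an alternative chosen after seeing the data, it was 3.49 in hrde-1 and 8.82 in N2, with 17 cytoplasmic reads in N2. On the log2(coverage + 1) scale, which understates the change of low windows, the GRTS median was 3.34 in hrde-1 and 1.18 in N2. The ratios pool the coverage of all windows, whereas the medians weigh each window alike. The order of the genotypes thus depends on the measure, and the parts of scale and pooling were not tested apart.

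**Figure D5:**
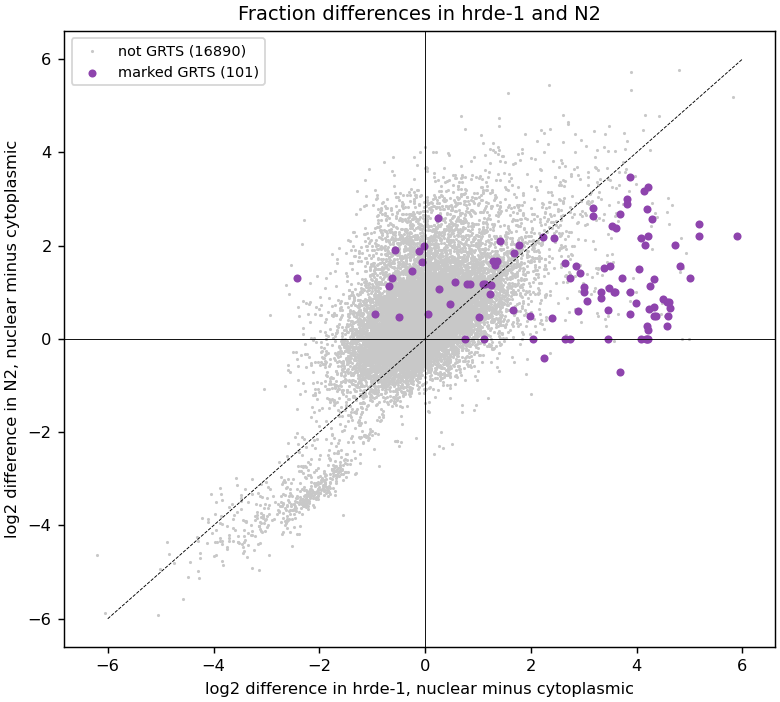
Log2 difference between nuclear and cytoplasmic RNA, on the log2(coverage + 1) scale, of each described window in hrde-1 (horizontal) and N2 (vertical), grey for windows not marked GRTS and purple for the 101 marked GRTS, with the dashed line at equal differences. Of all 16991 windows 4510 lie below the dashed line, with a larger difference in hrde-1 than in N2, and of the 101 GRTS windows, whose N2 coverage is low, 76 do.

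No window differed between the genotypes in its nuclear against cytoplasmic difference at an adjusted p under 0.05 (limma interaction, 0% of 43933 windows). Unadjusted, 2742 of the described windows and 51 of the 101 GRTS windows had a p under 0.05. The interaction, hrde-1 minus N2, had a median of 1.86 over the GRTS windows and -0.44 over all described windows. The median over the described windows was 0.04 after scaling all libraries to the same median, a step whose factors were farthest from 1 in the N2 cytoplasmic libraries (0.724 and 0.829). The count of 0 was 270 with no filter on low windows, 53 with a pseudocount of 10, 30 of them GRTS windows, and 13 after thinning. Dropping the N2 cytoplasmic library of generation 3 gave 269, and dropping that of generation 4 gave 1700.

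The windows with the smallest interaction p lay in both directions. Window 10855001 of V read 17.4 and 15.4 in nuclear RNA of hrde-1, against 33.8 and 37.0 in its cytoplasmic RNA, and in N2 it read 15.4 and 10.6 in nuclear RNA and the floor in both cytoplasmic libraries (limma adjusted p = 0.181). Window 18444001 of V, among the 10 most nuclear windows of hrde-1, was at the floor in all 4 N2 libraries of these fractions (adjusted p = 0.210). Window 5211001 of III was lower in nuclear RNA in both genotypes, with log2 differences of -1.16 in hrde-1 and -2.09 in N2 and N2 values of 1222 and 1115 in nuclear RNA, against 4943 and 4970.1 in cytoplasmic RNA (adjusted p = 0.210).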

How the data were processed

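RNA coverage was read from the one deposited table, a signal in windows of 1000 bases that the authors normalized per library; no source used here gives its scale, genome build or strand, or how reads with several matches were counted. Bowtie 0.12.7 was used, per the submitters' processing notes. The spacing of low values gave the value of 1 read, 1.05 to 4.58, and below 40 between 77.1% and 89.7% of values lay within 0.0065 of a whole number of reads. All 12 libraries entered 1 fit of 6 groups in limma 3.58.1 (R 4.3.3; lmFit, eBayes with a trend, 6 residual degrees of freedom) on log2(coverage + 1), over the 43933 windows with a mean of at least 1, with Benjamini-Hochberg adjustment and a threshold of 0.05. An exact permutation test of 2 against 2 libraries cannot go below p = 0.333. Folds and ratios were taken above the floor; with no reads in a group, they are bounds against 3 reads over the group. Intervals and floors cover counting error only. The limma fit was tested on simulated coverage.

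The members and lists were chosen with earlier results of these data known. Windows were named by rule: the 10 highest and 10 lowest called windows, the 8 runs of each direction with the most called windows, the 6 most abundant called windows of each direction, the 6 most abundant windows, the 6 of each direction with the smallest interaction p, and the 8 GRTS and 4 GRH windows with the highest means. The reference annotation at hand places genes on V beyond the last window of the table, so builds differ and no annotation or sequence was used. Alternatives were other pseudocounts, filters, scalings and depths, a replicate block, a fit of the groups compared, eBayes without a trend, and each library left out.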

Additional observations from a re-analysis of the deposited data

How the results depend on the processing

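No called result changed direction under any of the alternatives run; the median of all described windows, -0.08, was -0.23 to 0.03 with a library left out. Counts of described windows are given as higher, then lower, in hrde-1 nuclear than in cytoplasmic RNA. The 729 and 943 windows became 458 and 595 with eBayes without a trend, 220 and 253 after thinning to the smallest library, and 0 and 0 in a fit of the groups compared alone; the 729 became 458 with no filter on low windows. Leaving out each library in turn gave 252 to 1195 higher and 493 to 1422 lower. The interaction count of 0 became 270 with no filter, 53 with a pseudocount of 10, 13 after thinning, and 0 to 1700 with a library left out. The 63 GRTS windows became 27 after thinning, 0 in the fit of the groups compared and 39 to 70 with a library left out, and their median of 3.34 became 3.61, 1.63 and 3.16 with a pseudocount of 0.1, a pseudocount of 10 and quantile normalization, and 2.86 to 3.34 with a library left out. The 10 GRH windows not marked GRTS became 6 and 20 with pseudocounts of 0.1 and 10, 2 after thinning, 0 in the fit of the groups compared and 3 to 18 with a library left out, and their median of 0.78 was 0.50 to 1.09. The causes were not tested. By construction thinning lowers depth, and leaving out a library lowers the number of libraries, but the counts of windows called with a library left out moved in both directions. Under every setting but the fit of 4 libraries, 151 higher and 188 lower windows kept their call, 19 of them GRTS. For named windows, 1428 values stayed on the same side of the threshold, 90 lost the call and 44 gained it.

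The labels give the groups a shared generation number, and the deviations of same-numbered libraries had a correlation of 0.037 to 0.166, 0.0462 between the hrde-1 fractions. With 2 pairs this does not show pairing. With generation as a replicate block, 844 windows were higher, 1048 lower and 65 of the GRTS windows higher.

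Depth limits low windows most: in the cytoplasmic libraries 1 read was worth 1.87 to 4.58 units of coverage, so a low window there rests on a few reads.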

Other observations

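In described windows called neither higher nor lower lay 68.7% and 69.9% of the signal of the hrde-1 nuclear libraries and 75.6% and 73.6% of that of the hrde-1 cytoplasmic libraries. The GRTS windows described made up 0.483% and 0.487% of the signal of the hrde-1 nuclear libraries, 0.157% and 0.131% of that of the hrde-1 cytoplasmic libraries, and 0.206% and 0.214% of that of hrde-1 whole RNA. Windows of chromosome X made up 10.2% and 9.98% of the hrde-1 nuclear signal and 11.2% and 11.8% of the hrde-1 cytoplasmic signal, beside 10.2% and 9.46% of the N2 nuclear signal and 16.8% and 14.1% of the N2 cytoplasmic signal, and the difference between the genotypes in these shares was not tested.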
